A study of Ursus arctos with 12 samples.

Results

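The genes described here encode the machinery of autophagy and of mitophagy, its form that removes mitochondria. They were the 47 symbols of a written list with at least 30 reads summed over the 12 libraries, and all 47 passed, out of 17290 genes tested. The muscle was the vastus lateralis of the thigh, biopsied from 6 free-ranging brown bears (Ursus arctos) of 2 to 3 years of age. A winter biopsy was taken from each animal while it hibernated, in February, and a summer biopsy after its return to activity, in June of that year, and both were frozen on dry ice. The 6 winter and 6 summer libraries therefore came from the same wild animals, sampled under anesthesia and otherwise untreated as far as the labels say.

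Autophagy encloses cytoplasm in a double membrane, the autophagosome, which then fuses with a lysosome whose enzymes break the content down. The ULK1 kinase complex starts the process, a PI3-kinase complex marks the growing membrane with the lipid PI3P, proteins of the ATG8 family (the LC3 and GABARAP proteins) are coupled to that membrane, and receptors such as p62 bind both ATG8 proteins and cargo. In skeletal muscle this system is known for the removal of damaged mitochondria and for its part in protein breakdown during wasting, and several of its genes are targets of the transcription factors TFEB, TFE3 and FOXO3. An mRNA level does not measure the flux through this pathway, since ATG8 proteins and receptors are themselves degraded in it.

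Read totals ran from 20191068 to 27283155 per library in summer and from 16742406 to 32140160 in winter. The summed level of 7 muscle fibre markers was 102633 to 169308 CPM (reads of a gene per 1e6 reads) in summer and 108628 to 146911 in winter (1 marker higher and 2 lower). The 6 fibroblast markers summed to 4177 to 11270 CPM in summer against 270 to 1623 in winter (4 lower and 0 higher), and the 6 endothelial markers to 600 to 937 against 398 to 461 (5 lower and 0 higher). The fibroblast markers fell unequally. COL1A1, COL1A2, COL3A1 and LUM had log2 fold changes of −4.59, −3.74, −4.17 and −1.93, while PDGFRA and DCN, at −0.49 and −0.75, were not called. Markers of smooth muscle and pericytes (1 of 4), leukocytes (2 of 5), satellite cells (2 of 2) and Schwann cells (1 of 3) were also lower where they passed the test. Of the 4 adipocyte markers only LEP passed, higher in winter on 0 to 19 reads per library. ADIPOQ, PLIN1 and CIDEC had log2 fold changes of −0.86, −0.93 and −2.43 and were not called. The part of these cell types in the values of the autophagy genes was not tested, and in a biopsy fewer cells of a type and less RNA per cell cannot be told apart. Over all genes the winter library of bear 1509 had the largest median distance from the other winter libraries. It was 0.367 log2 units per gene, where the other 5 lay at 0.221 to 0.322. Its 3 Schwann cell markers summed to 117 CPM, against 6.09 to 23.6 CPM in the other winter libraries.

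Levels are given as log2 CPM, normalized by the TMM method, and are compared between seasons for one gene at a time and never between genes, whose lengths differ. Fold changes are winter over summer with their standard error (SE), from the quasi-likelihood test of edgeR, with p-values adjusted over all 17290 genes by the Benjamini-Hochberg method. A gene was called when its adjusted p lay below 0.05. The 47 genes held between 32 and 11372 reads in a library, with the fewest on ATG10, MAP1LC3A and ATG4C.

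Of the 47 genes, 12 rose and 8 fell in winter, which is 42.6% of them. Over all genes tested the called share was 39.5%, with 19.6% higher and 19.9% lower, so the share among the autophagy genes lay near the background. Both directions occurred among the lipid supply and PI3P proteins, the ATG8 coupling enzymes, the ATG8 family, the cargo receptors and the mitophagy genes. Higher in winter were ATG14, the BNIP3L and BNIP3 mitophagy receptors, ATG2A, WDFY3, CALCOCO2, RB1CC1, ATG12, GABARAPL1, TAX1BP1, ATG2B and ATG16L1. Lower were TP53INP2, MAP1LC3A, ATG10, WIPI1, OPTN, ATG9A, TFE3 and PINK1. The median log2 fold change was 0.10 over the 47 genes and −0.0021 over all genes, with 28 autophagy genes above 0 and 19 below.

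**Figure D1:**
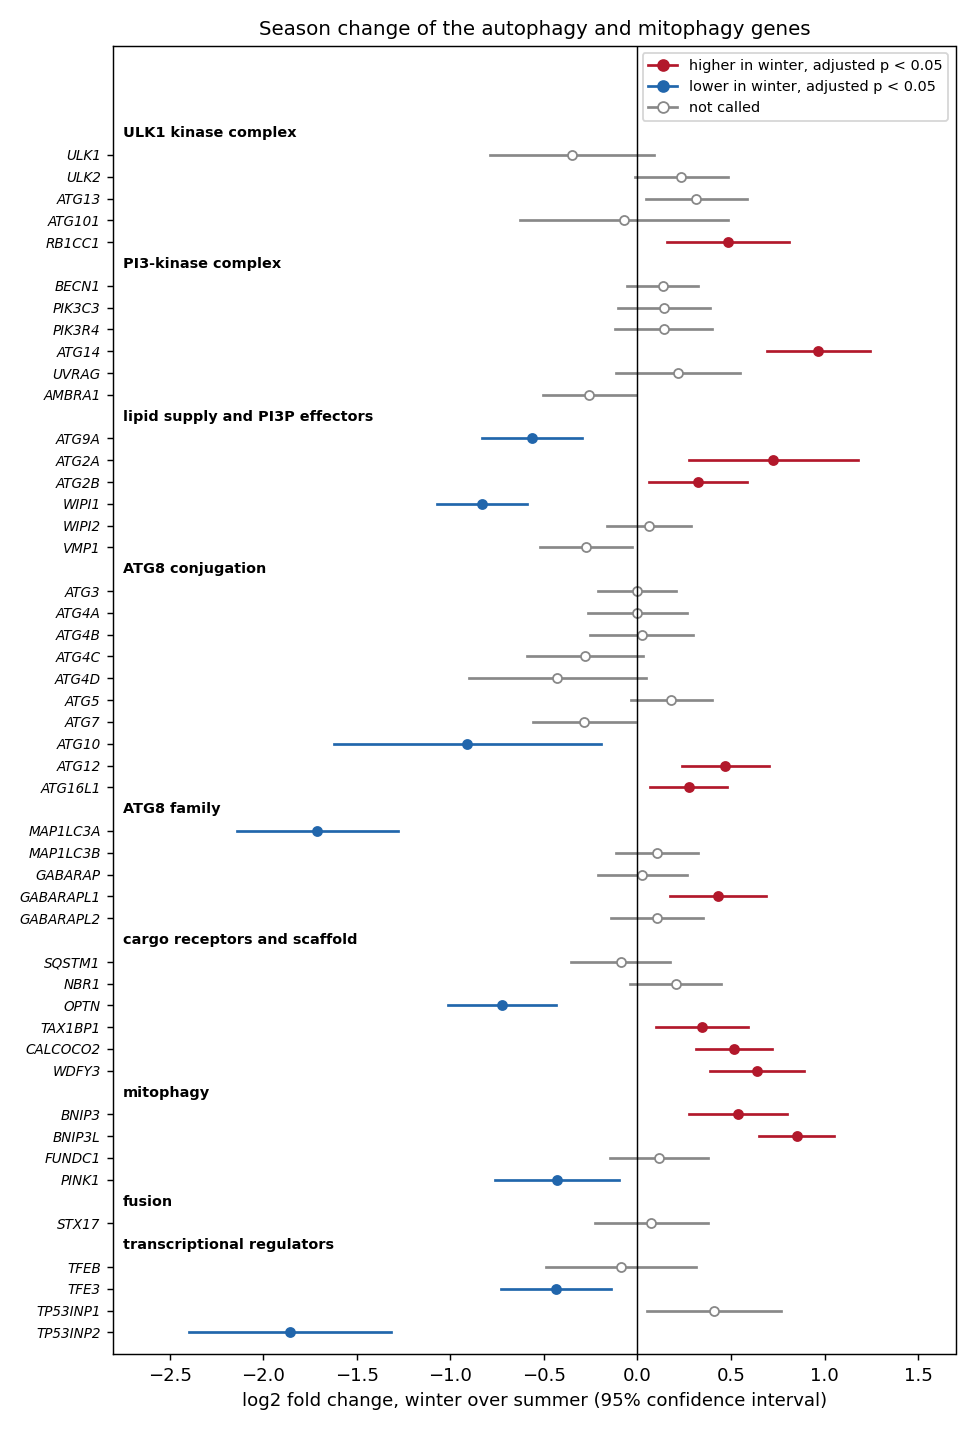
Log2 fold change, winter over summer, of the 47 genes grouped by their role, as points with 95% confidence intervals. The fit held season alone, over the 12 libraries of 6 bears, and did not pair the libraries of a bear. Filled points passed an adjusted p below 0.05 (red higher, 12 genes; blue lower, 8 genes), and MAP1LC3A and TP53INP2 lie farthest from 0.

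The changes were small. A difference of less than 2-fold was found for 18 of the 20 called genes, the exceptions being MAP1LC3A and TP53INP2, while 42.0% of all called genes changed by more than 2-fold. The median size of the change was 0.28 log2 units against 0.46 over all genes. The libraries of a season also lay closer together, with a median SD of 0.20 in summer and 0.21 in winter against 0.32 and 0.35 over all genes. The lowest read total over all libraries among the 47 genes was 1499, for ATG10. The background of all genes also held genes with far fewer reads, such as LEP with 52. The comparisons with all genes were not matched for read depth, and its part in these differences was not tested. For all 27 genes that were not called, the 95% confidence interval stayed within 1 log2 unit of 0 on either side, and for 17 of them within 0.5. With stricter limits (adjusted p under 0.01, with a winter level over 1.3 or under 0.77 times that of summer), 6 genes were higher and 5 lower (24% of all genes passed these limits). The reads on the 47 genes made up 0.286 to 0.363% of a summer library and 0.271 to 0.338% of a winter library.

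The count of calls depended on the animals and on the scaling. Without bear 1305 only 7 genes were higher and 5 lower, without bear 1316 there were 7 and 6, and without bear 1317 there were 14 and 5. Without bear 1509, whose winter library lay farthest from the others over all genes, 9 were higher and 6 lower. Calls over all genes also went down in these fits, from 6831 to 5258, 5669, 5638 and 6520 with bears 1305, 1316, 1317 and 1509 left out in turn. Scaled by library totals, 8 were higher and 9 lower, while the share higher among all called genes moved from 49.6% to 41.7%. The calls of ATG9A, ATG12, ATG14, WIPI1, MAP1LC3A, OPTN, CALCOCO2, BNIP3, BNIP3L, TP53INP2 and WDFY3 were made in each of the 14 other fits, with adjusted p-values up to 0.0227.

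Of the 5 genes of the ULK1 complex, which starts autophagy, only RB1CC1 passed the test. RB1CC1, which encodes the scaffold FIP200 of this complex, ranged from 7.13 to 7.85 log2 CPM in summer (median 7.39) and from 7.39 to 8.15 in winter (median 8.05). Of the winter libraries, 4 lay above every summer library and the level was higher in 5 of 6 bears. The log2 fold change was 0.49 ± 0.15 (SE, adjusted p = 0.0213), and the adjusted p was 0.0819, 0.0881 and 0.0523 without bears 1305, 1316 and 1509 and 0.0667 with library totals. ULK1, the kinase itself, was at 4.14 to 4.84 in summer (median 4.53) and at 3.04 to 4.51 in winter (median 4.21). The seasons overlapped, and the lowest value by far was the winter library of bear 1509, with a change of −1.64 from the summer library of that bear. For ULK1 the log2 fold change was −0.35 ± 0.20, with a 95% confidence interval of −0.79 to 0.09 (adjusted p = 0.191), and −0.15 without bear 1509 (adjusted p = 0.428). Its paralog ULK2 had a log2 fold change of 0.24 ± 0.12 (adjusted p = 0.121), and ATG13, the partner that links ULK1 to FIP200, one of 0.32 ± 0.13 (adjusted p = 0.0588). ATG101, which binds ATG13, had changes from −1.47 to 1.33 between bears and a fitted value of −0.07 ± 0.26.

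In the PI3-kinase complex only ATG14 passed the test. ATG14, the subunit that directs the kinase to sites of autophagosome formation, ranged from 4.23 to 4.99 log2 CPM in summer (median 4.67) and from 5.39 to 5.79 in winter (median 5.59). All 6 winter libraries lay above all summer libraries, and every bear was higher in winter by 0.67 to 1.56. The winter level was 1.95-fold that of summer (log2 0.97 ± 0.13, adjusted p = 9.03e-05). BECN1, the core subunit Beclin 1, was at 5.68 to 6.04 in summer (median 5.80) and at 5.75 to 6.07 in winter (median 5.98). It was higher in all 6 bears, but by a log2 fold change of only 0.14 ± 0.09 (95% confidence interval −0.05 to 0.32, adjusted p = 0.236). The catalytic subunit PIK3C3 and the regulatory subunit PIK3R4 both had a log2 fold change of 0.14 (adjusted p = 0.341 and 0.376). UVRAG, which replaces ATG14 in a complex of the later endosomal steps, was at 0.22 (adjusted p = 0.286), and AMBRA1, a Beclin 1 binding protein, at −0.26 (adjusted p = 0.0905).

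The proteins that bring lipid to the growing membrane and read PI3P on it went both ways. WIPI1, a PI3P-binding protein, was at 5.49 to 5.72 log2 CPM in summer (median 5.55) and at 4.40 to 4.97 in winter (median 4.85). Each winter library lay below each summer library, and the log2 fold change was −0.83 ± 0.11 (adjusted p = 9.48e-05), a 1.78-fold higher level in summer. ATG9A, the scramblase of the vesicles that seed the membrane, ranged from 6.29 to 6.88 in summer (median 6.65) and from 5.79 to 6.38 in winter (median 6.02). It was lower in all 6 bears, 5 winter libraries lay below every summer library, and the log2 fold change was −0.56 ± 0.12 (adjusted p = 0.00285).

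ATG2A and ATG2B, the lipid transfer proteins that work with ATG9A, rose instead. ATG2A was at 3.21 to 3.71 log2 CPM in summer (median 3.61) and at 3.03 to 4.64 in winter (median 4.33). In 5 bears it was higher in winter by 0.65 to 0.99, and in bear 1509 its change was −0.60, which left the winter library of that bear under every summer value. The log2 fold change was 0.73 ± 0.21 (adjusted p = 0.0143), with an adjusted p of 0.0619 without bear 1305. ATG2B ranged from 4.56 to 5.17 in summer (median 4.84) and from 4.83 to 5.34 in winter (median 5.26), and was higher in 6 of 6 bears. Its log2 fold change of 0.32 ± 0.12 was close to the threshold (adjusted p = 0.0476). The adjusted p of ATG2B was 0.162, 0.14, 0.0547 and 0.0972 without bears 1305, 1316, 1317 and 1509, and up to 0.204 in other fits. WIPI2, which recruits ATG16L1, had a log2 fold change of 0.06 (adjusted p = 0.674), and VMP1, a scramblase of the endoplasmic reticulum, one of −0.28 (adjusted p = 0.0693).

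Of the 10 genes that couple ATG8 proteins to lipid, 2 rose, 1 fell and 7 did not pass the test. ATG12, the ubiquitin-like protein that is joined to ATG5, was at 4.78 to 5.16 log2 CPM in summer (median 4.97) and at 5.08 to 5.70 in winter (median 5.48). It was higher in all 6 bears, with 5 winter libraries above every summer library and a log2 fold change of 0.47 ± 0.11 (adjusted p = 0.00375). ATG16L1, which completes the complex with ATG12 and ATG5, was at 3.98 to 4.38 in summer (median 4.12) and at 4.27 to 4.51 in winter (median 4.42). It too was higher in 6 of 6 bears, by a log2 fold change of 0.27 ± 0.10 (adjusted p = 0.036). With the bear as a block the value was 0.28 (adjusted p = 0.0511), with library totals 0.19 (adjusted p = 0.233), and ATG16L1 was called in 5 of 14 other fits. Without bears 1305, 1316, 1509, 1511 and 1512 its adjusted p was 0.0769, 0.13, 0.0643, 0.0581 and 0.0945.

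ATG10, the enzyme that joins ATG12 to ATG5, fell in winter. Its libraries held only 32 to 241 reads each, and it was at 1.93 to 3.25 log2 CPM in summer (median 2.84) and at 0.92 to 2.91 in winter (median 1.47). It was lower in all 6 bears, with changes of −1.45 to −0.28, 4 winter libraries lay under the lowest summer library, and the log2 fold change was −0.91 ± 0.33 (adjusted p = 0.0423). Leaving out bears 1305, 1316, 1317, 1511 and 1512 gave adjusted p-values of 0.121, 0.0525, 0.0755, 0.107 and 0.081. Without bear 1509 the adjusted p of ATG10 was 0.00976. With the bear as a block its log2 fold change was −0.998 (adjusted p = 0.00258), and ATG10 was called in 9 of 14 other fits. The other genes of this group were ATG3, ATG5 and ATG7, enzymes and partners of the conjugation, and the proteases ATG4A, ATG4B, ATG4C and ATG4D, which trim and release ATG8 proteins. Their log2 fold changes ran from −0.43 for ATG4D (adjusted p = 0.139) to 0.18 for ATG5 (adjusted p = 0.17). ATG7 was lower in all 6 bears without passing the test (log2 −0.28, adjusted p = 0.0905).

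**Figure D2:**
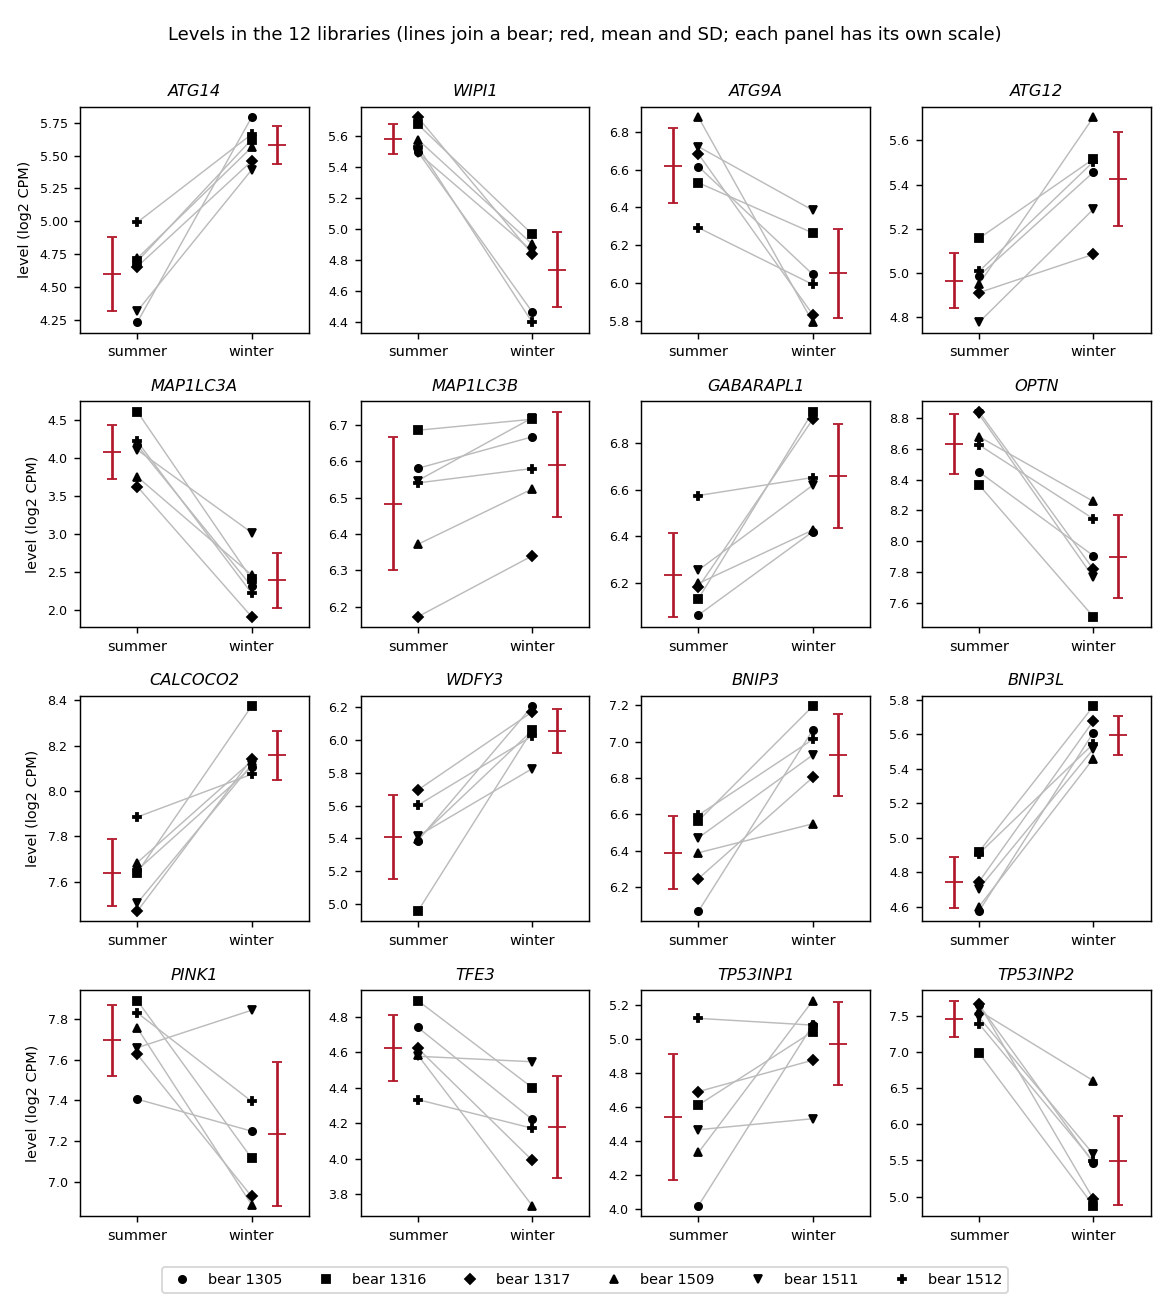
Level in log2 CPM of 16 of the genes in the 12 libraries, with summer at the left and winter at the right of each panel, grey lines joining the libraries of a bear, and the mean and SD of 6 bears in red. ATG14, WIPI1, MAP1LC3A, OPTN, CALCOCO2, WDFY3, BNIP3L and TP53INP2 show no overlap between seasons, and each panel has a scale of its own.

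Within the ATG8 family the LC3 paralogs parted. MAP1LC3A had 65 to 511 reads per library and was at 3.62 to 4.61 log2 CPM in summer (median 4.14) and at 1.91 to 3.02 in winter (median 2.36). All 6 winter libraries lay below all summer libraries, with changes of −2.21 to −1.09 within bears. The summer level was 3.27-fold that of winter (log2 −1.71 ± 0.20, adjusted p = 3.92e-05). MAP1LC3B, which encodes the LC3 protein most used as an autophagosome marker, was at 6.17 to 6.69 in summer (median 6.54) and at 6.34 to 6.72 in winter (median 6.62). Its seasons overlapped almost completely, although it was higher in 6 of 6 bears by 0.03 to 0.17. The log2 fold change of MAP1LC3B was 0.10 ± 0.10 (95% confidence interval −0.12 to 0.32, adjusted p = 0.439).

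GABARAPL1, an ATG8 protein that binds many receptors and is a FOXO target, was at 6.06 to 6.58 log2 CPM in summer (median 6.19) and at 6.42 to 6.94 in winter (median 6.64). It was higher in 6 of 6 bears and 4 winter libraries lay above every summer library. The log2 fold change was 0.43 ± 0.12 (adjusted p = 0.0109), or 0.35 without bear 1316 (adjusted p = 0.0501). GABARAP and GABARAPL2 had log2 fold changes of 0.03 (adjusted p = 0.871) and 0.11 (adjusted p = 0.488).

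The cargo receptors did not move as one. OPTN, the receptor optineurin, which binds ubiquitin on damaged mitochondria, was at 8.37 to 8.84 log2 CPM in summer (median 8.65) and at 7.51 to 8.26 in winter (median 7.86). No winter library reached the lowest summer one, and the log2 fold change was −0.72 ± 0.14 (adjusted p = 0.00096). CALCOCO2, which encodes the receptor NDP52 with the same cargo, went the other way, from 7.47 to 7.88 in summer (median 7.64) to 8.07 to 8.37 in winter (median 8.12). All 6 winter libraries lay above all summer libraries, at a log2 fold change of 0.52 ± 0.10 (adjusted p = 0.000874).

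WDFY3, the scaffold ALFY that links p62 bodies of aggregated protein to the ATG8 coupling machinery, was at 4.95 to 5.70 log2 CPM in summer (median 5.40) and at 5.83 to 6.21 in winter (median 6.06). Here too the seasons did not overlap, and the log2 fold change was 0.64 ± 0.12 (adjusted p = 0.000866). TAX1BP1, a receptor for ubiquitinated aggregates, ranged from 6.75 to 7.22 in summer (median 7.01) and from 6.97 to 7.60 in winter (median 7.40). It was higher in 6 of 6 bears by a log2 fold change of 0.34 ± 0.11 (adjusted p = 0.0289). That call of TAX1BP1 was lost without bears 1305, 1316, 1509 and 1512 (adjusted p = 0.116, 0.0806, 0.0674 and 0.0513), and the adjusted p reached 0.159 in other fits. SQSTM1, the gene of p62, was at 7.03 to 7.66 in summer (median 7.22) and at 6.83 to 7.43 in winter (median 7.23). For SQSTM1 the log2 fold change was −0.09 ± 0.12, with a 95% confidence interval of −0.35 to 0.18 (adjusted p = 0.597), and bears moved in both directions. NBR1, a receptor related to p62, had a log2 fold change of 0.21 (adjusted p = 0.166).

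Seasons without overlap were found for 8 of the 47 genes, 4 higher (ATG14, CALCOCO2, BNIP3L and WDFY3) and 4 lower (WIPI1, MAP1LC3A, OPTN and TP53INP2). Over all genes 17.3% had no overlap, 9.12% higher and 8.21% lower.

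Of the 4 mitophagy genes, the receptors BNIP3L and BNIP3 rose, PINK1 fell and FUNDC1 did not pass the test. BNIP3L, also known as NIX, was at 4.58 to 4.92 log2 CPM in summer (median 4.73) and at 5.46 to 5.76 in winter (median 5.58). Its seasons did not overlap, each bear was higher in winter by 0.64 to 1.04, and the winter level was 1.81-fold that of summer (log2 0.85 ± 0.09, adjusted p = 2.58e-05). BNIP3, its paralog and like it a known target of hypoxia signaling, was at 6.07 to 6.60 in summer (median 6.43) and at 6.55 to 7.19 in winter (median 6.97). In all 6 bears BNIP3 was higher in winter, by 0.16 in bear 1509 and by 0.99 in bear 1305 at the ends, and 5 winter libraries lay above every summer library. The winter level of BNIP3 was 1.45-fold that of summer (log2 0.54 ± 0.12, adjusted p = 0.00341).

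PINK1, the kinase that marks depolarized mitochondria for removal, was at 7.41 to 7.89 log2 CPM in summer (median 7.71) and at 6.89 to 7.84 in winter (median 7.18). In 5 bears it was lower in winter, 5 winter libraries lay under every summer library, and in bear 1511 it was higher by 0.18. The log2 fold change was −0.43 ± 0.15 (adjusted p = 0.0387). This call of PINK1 rested on the set of bears, with an adjusted p of 0.0512, 0.13, 0.0984, 0.123 and 0.0851 without bears 1305, 1316, 1317, 1509 and 1512, and of 0.00498 without bear 1511. FUNDC1, the third receptor of the outer membrane, had a log2 fold change of 0.11 (adjusted p = 0.481). STX17, the SNARE protein of the closed autophagosome, had one of 0.07 (adjusted p = 0.703).

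The largest change of all 47 genes was in a regulator. TP53INP2, a nuclear protein that moves to autophagosomes, binds ATG8 proteins and is known to limit muscle mass in mice, was at 6.99 to 7.66 log2 CPM in summer (median 7.52) and at 4.88 to 6.60 in winter (median 5.47). All 6 winter libraries lay below all summer libraries, with changes within bears of −2.69 to −0.97, the smallest in bear 1509. The summer level of TP53INP2 was 3.62-fold that of winter (log2 −1.86 ± 0.25, adjusted p = 0.000102). TP53INP1, its p53-induced paralog, was at 4.02 to 5.12 in summer (median 4.54) and at 4.53 to 5.23 in winter (median 5.06). The seasons overlapped, 5 of 6 bears were higher, and the log2 fold change of TP53INP1 was 0.41 ± 0.17 (adjusted p = 0.0639). With the bear as a block it was 0.43 (adjusted p = 0.0473).

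TFE3 and TFEB, related transcription factors that drive lysosome and autophagy genes, gave different calls. TFE3 was at 4.33 to 4.89 log2 CPM in summer (median 4.60) and at 3.74 to 4.55 in winter (median 4.20). It was lower in 6 of 6 bears, 4 winter libraries lay under every summer library, and the log2 fold change was −0.43 ± 0.14 (adjusted p = 0.0223). Without bears 1305, 1317 and 1509 the adjusted p of TFE3 was 0.0633, 0.0719 and 0.0573. TFEB was at 4.04 to 4.76 in summer (median 4.39) and at 3.36 to 4.64 in winter (median 4.40). Its 95% confidence interval ran from −0.49 to 0.31 around a log2 fold change of −0.09 ± 0.19 (adjusted p = 0.737), and the winter library of bear 1509 was far below the other 5.

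Within single animals, the number of genes higher in winter varied little. In each bear 26 to 28 of the 47 genes were higher in winter, at a median change of 0.03 to 0.15. Of the 12 genes called higher, 11 or 12 were higher in each bear, and of the 8 called lower, 7 or 8 were lower. These genes were called on the same bears, so that their direction there is a description. The same direction in 6 of 6 bears was found for 21 of the 47 genes (13 higher and 8 lower) and for 37.3% of all genes. It held for 17 of the 20 called genes, the exceptions being RB1CC1, ATG2A and PINK1, and for ATG5, BECN1, MAP1LC3B and ATG7 among those not called.

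**Figure D3:**
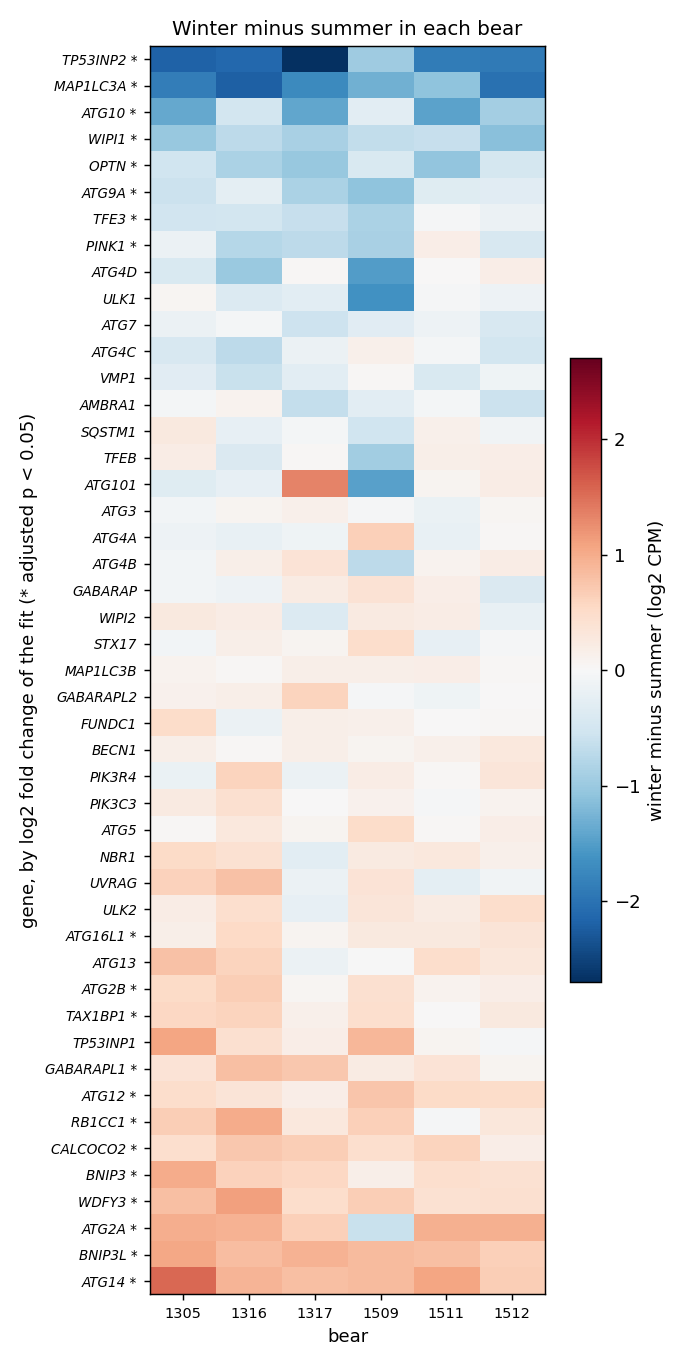
Winter minus summer level in log2 CPM within each of the 6 bears (columns) for the 47 genes (rows), ordered by the fitted log2 fold change, with red for higher and blue for lower in winter and an asterisk for an adjusted p below 0.05. Bear 1509 has changes of −1.64 for ULK1 and −0.60 for ATG2A, which lie apart from those of the other bears.

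Paralogs of the set were compared in the same bears by the difference of their changes, with an exact two-sided sign-flip test over 6 bears for 8 pairs. The smallest p this test can give is 0.03125, which is 0.0417 after adjustment over the 8 pairs here. It was reached where the direction of the difference was the same in 6 of 6 bears. The change of MAP1LC3A minus that of MAP1LC3B was −1.80 ± 0.37 log2 units (mean and SD), and WIPI1 and WIPI2 differed by −0.90 ± 0.25. TP53INP1 and TP53INP2 were 2.39 ± 0.59 apart. These pairs each held a gene that fell beside one that did not pass the test.

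Smaller differences in the same 6 of 6 direction were those of GABARAPL1 over GABARAPL2 (0.31 ± 0.22), of BNIP3 under BNIP3L (−0.32 ± 0.22) and of ULK1 under ULK2 (−0.65 ± 0.71), each at an exact adjusted p of 0.0417. The difference between ULK1 and ULK2 was −0.38 without bear 1509. TFEB and TFE3 differed by 0.32 ± 0.32 in 5 of 6 bears (exact adjusted p = 0.0714), and ATG2A and ATG2B by 0.32 ± 0.70 (exact adjusted p = 0.281), or 0.60 without bear 1509. Reads of 50 bases may be shared between close paralogs or with processed copies, and how such reads were counted is not given in the sources used here.

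**Figure D4:**
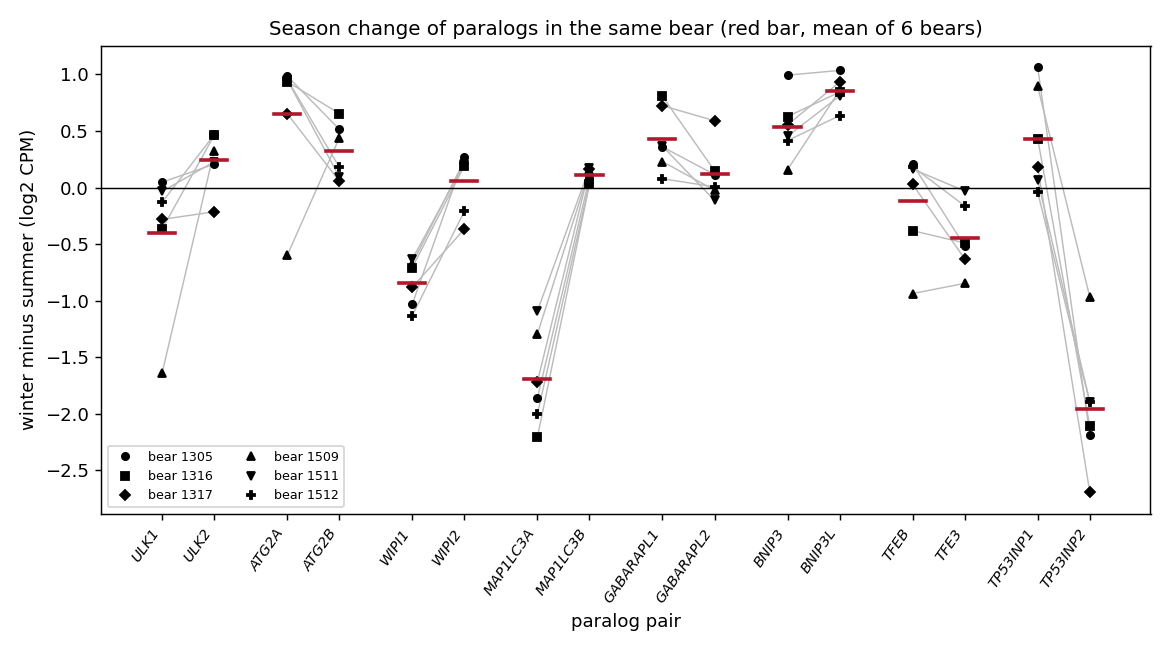
Winter minus summer level in log2 CPM of the 8 paralog pairs, with a symbol for each of the 6 bears, grey lines joining the paralogs of a bear, and red bars for the mean of 6 bears. The lines slope the same way in all 6 bears for 6 pairs, and bear 1509 sets ULK1 and ATG2A apart.

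The genes around this core were read from 4 further lists of 59 autophagy genes, 56 of which could be tested. Of these, 12 rose and 4 fell, a share of 28.6% where the background is 39.5%, with a median log2 fold change of 0.12. ATG9B and MAP1LC3C had 9 and 2 reads over all libraries and were not tested, and ZKSCAN3 was not analysed here.

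Among 13 genes of autophagosome formation, 3 rose and 0 fell (23.1% called, with 39.5% over all genes). TMEM41B, an ER scramblase that acts with VMP1, had a log2 fold change of 0.61 ± 0.09 (adjusted p = 0.00024, higher in 6 of 6 bears). SH3GLB1, a curvature protein that binds Beclin 1 through UVRAG, was at 0.36 ± 0.12 (adjusted p = 0.0299). Without bears 1305, 1317 and 1512 its adjusted p was 0.0733, 0.112 and 0.0913. NRBF2, a subunit of the ATG14 complex, had a log2 fold change of 0.79 ± 0.31 (adjusted p = 0.0569) and, with the bear as a block, of 0.97 (adjusted p = 0.0105).

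Among 15 genes of fusion with lysosomes, 3 rose and 3 fell (40% called, with 39.5% over all genes). VPS33A, a subunit of the tethering complex HOPS, was higher (log2 0.49 ± 0.11, adjusted p = 0.00298), as was LAMP2 of the lysosome membrane (log2 0.47 ± 0.11, adjusted p = 0.00328). LAMP1 was lower by a log2 fold change of −0.40 ± 0.09 (adjusted p = 0.00422). VAMP8, the lysosomal SNARE that pairs with STX17, was at 3.99 to 4.71 log2 CPM in summer (median 4.62) and at 2.98 to 3.57 in winter (median 3.15), without overlap. The log2 fold change of VAMP8 was −1.26 ± 0.15 (adjusted p = 4.22e-05), beside no called change of STX17. VAMP8 is also used in leukocytes, whose 5 markers summed to 34.8 to 66.4 CPM in summer and 20.1 to 42.9 in winter, and their part in this value was not tested.

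The 18 further genes of selective autophagy gave 2 rises and 1 fall (16.7% called, with 39.5% over all genes). PHB2, an inner membrane mitophagy receptor, was higher by 0.74 ± 0.11 on the log2 scale (adjusted p = 0.000186). CALCOCO1, a receptor for the endoplasmic reticulum and a paralog of CALCOCO2, was higher by 0.70 ± 0.11 (adjusted p = 0.000279). TBK1, the kinase that phosphorylates OPTN, had a log2 fold change of 0.30 ± 0.12 (adjusted p = 0.0589, and 0.0415 with the bear as a block).

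Of 10 genes listed with TFEB and TFE3 (their regulators and the related factor MITF), 4 rose and 0 fell. The called share was 40%, near the 39.5% of all genes (19.6% higher and 19.9% lower). MITF, a factor of the same family, was at 6.12 to 6.97 log2 CPM in summer (median 6.24) and at 7.18 to 7.57 in winter (median 7.26). Its seasons did not overlap and the log2 fold change was 0.90 ± 0.14 (adjusted p = 0.0003). RRAGD, a Rag GTPase that holds these factors at the lysosome, was at 4.43 to 5.15 in summer (median 4.90) and at 5.19 to 5.85 in winter (median 5.50), a log2 fold change of 0.72 ± 0.14 (adjusted p = 0.00135). RRAGC and FNIP1, further parts of the Rag GTPase branch, made up the other called genes of this list.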

How the data were processed

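Muscle RNA of 6 bears was measured in winter and in summer, 12 libraries in all. The authors made stranded mRNA libraries, read single ends of 50 bases, aligned them to ASM358476v1 with TopHat2 2.1.1, discarded alignments with over 3 mismatches, and counted reads on the gene's opposite strand with featureCounts 1.6.2. The deposited values are raw counts per gene for 30249 genes, without normalization or filter. All tests of genes were made here with edgeR 4.0.16 in R 4.3.3: genes under 30 reads over the 12 libraries (0.019% of all reads) were dropped, TMM gave the scaling, and the quasi-likelihood fit (glmQLFit, glmQLFTest) held season alone. The study names DESeq2 and gives no design formula. Levels are log2 CPM with a prior count of 2.

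The same bears were sampled in both seasons, by the study's methods. After subtraction of each season's mean, both libraries of one animal correlated at 0.0903 to 0.344, and libraries of different animals at −0.214 to 0.142. Alternatives were the bear as a replicate block, DESeq2 1.42.0 with and without it, limma 3.58.1 (voom), RLE normalization, library totals, no filter, filterByExpr, and each bear left out. The code of the fits was tested on simulated data, whose outcome supports no value given here. Lanes of sequencing are not assigned in the labels, so a lane effect was not tested.

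The 47 genes, their roles, the further lists and the pairs were chosen with earlier results of these data known. Named in full were called genes that changed in one direction in 6 of 6 bears, with ULK1, BECN1, MAP1LC3B, GABARAPL1, SQSTM1, BNIP3, BNIP3L, PINK1 and TFEB, and of each further list the 2 called genes per direction with the lowest adjusted p; others were added after their values were seen, namely RB1CC1, ATG2A, TP53INP1, NRBF2, TBK1, RRAGC and FNIP1. All 47 symbols were found in RefSeq, and sequences and coordinates were not used here. The values of 1 called gene of the further lists are not reported here.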

Additional observations from a re-analysis of the deposited data

Results flagged for a closer look

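Each gene was examined in each season for a lowest or highest value that stood off from the others by more than Dixon's 95% critical value for 6 samples, a limit on the gap as a share of the range. This was so in 7 of 94 groups of 6, where chance gives about 5%. The winter library of bear 1509 accounted for 4 of them, being low for ULK1 (3.04 log2 CPM, others 4.14 to 4.51), ATG2A (3.03, others 4.17 to 4.64), ATG4B (4.08, others 4.69 to 4.84) and TFEB (3.36, others 4.22 to 4.64). It was the lowest winter library for 15 of the 47 genes and the highest for 10, counts that were 17 and 11 for the winter library of bear 1511, which lay farther from the others over these genes (a median distance of 0.215 against 0.196 log2 units). The winter library of bear 1509 is the one with the high Schwann cell markers, whose part in these values was not tested. Without bear 1509 the log2 fold change of TFEB was 0.04 in place of −0.09. The winter library of bear 1512 was low for ATG7 (2.60, others 2.91 to 3.04). The summer library of bear 1317 was low for GABARAPL2 (6.11, others 6.60 to 6.84). The winter library of bear 1316 was high for CALCOCO2 (8.37, others 8.07 to 8.14), and all 6 winter libraries of this gene lay above its summer libraries.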

How the results depend on the processing

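Of the 658 values of the 47 genes under the 14 alternatives, 574 kept their direction and their side of the threshold, 40 lost the call, 13 gained it and 31 changed sign. With the stricter limits 6 of these genes were higher and 5 lower. Leaving out each bear in turn gave 7 to 14 higher and 5 to 7 lower. A replicate block for the bear gave 12 higher and 8 lower, losing ATG16L1 (0.28) and gaining TP53INP1 (0.43). Among the further genes the block lost 1 call and gained NRBF2 and TBK1, and it changed no other call. Library totals moved the median of all genes from −0.0021 to −0.081 and the share of called members that were higher from 60.0% to 47.1%, where that of all called genes moved from 49.6% to 41.7%. The values that changed sign belonged to genes that were not called. ATG3 was at 0.0051 with RLE, 0.0094 with filterByExpr, 0.0062 with DESeq2, 0.0057 with DESeq2 and the block, and 0.0018 with voom, and ATG4A at 0.0015 with the block, 0.0052, 0.011, 0.0054, 0.0087 and 0.0046 in the same order. With library totals ATG4B was at −0.064, WIPI2 at −0.019, GABARAP at −0.041 and STX17 at −0.0034. Leaving out bears gave −0.028 to 0.030 for ATG3, −0.11 to 0.039 for ATG4A, −0.041 to 0.15 for ATG4B, −0.28 to 0.15 for ATG101, −0.032 to 0.11 for GABARAP, −0.17 to 0.0014 for SQSTM1, −0.16 to 0.037 for TFEB and −0.0048 to 0.12 for STX17. The causes were not tested. ATG10 had the fewest reads, 32 to 241 per library.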
